A study of Mus musculus with 9 samples.

Results

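Ace, Bpifb4 and Prom2 were followed library by library in 4T1 cells, a mouse mammary carcinoma line, as 3 of the 24421 genes of a count table. The 3 genes were chosen by measured values: with added palmitate, their counts were lower in spheroids of these same libraries. That lower level is therefore a description here, and no test is given for it. All 3 genes were among the 12575 that passed the filter on low counts. The study asked how palmitate, a saturated fatty acid that is abundant in lung, changes the transcripts of breast cancer cells grown as spheroids. The 9 RNA-seq libraries fell into 3 conditions of 3 replicates each, all unmodified 4T1 cells kept for 5 days in serum-containing RPMI medium. The first condition was 3D culture on soft agar with no palmitate added, the second was 3D culture with 75 µM palmitate added, and the third was attached 2D culture with 75 µM palmitate added. Serum carries fatty acids of its own, so the first condition had none added rather than none present. A 2D culture without added palmitate was not analysed here, so nothing below speaks of palmitate in monolayers. The labels do not say whether replicates were separate cultures, and p-values measure only the spread between these libraries.

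Ace encodes angiotensin-converting enzyme, a zinc peptidase on the outer face of the plasma membrane that cuts angiotensin I to angiotensin II and degrades bradykinin. It is best known from the endothelium of the lung, the brush border of the kidney and, as a shorter form from an internal start, from male germ cells. Bpifb4 encodes a protein of the BPI fold, a family of lipid-binding and lipopolysaccharide-binding proteins that are mostly secreted by epithelia of the airways and mouth. Prom2 encodes prominin-2, a pentaspan membrane protein that binds cholesterol and sits on microvilli and other protrusions of epithelial cells. Prominin-2 is also known to drive the export of ferritin, the iron store, in multivesicular bodies, by which cells resist ferroptosis.

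In the GRCm38 assembly, Ace lies on the plus strand at chr11:105967948-105989964 and its longest annotated transcript has 25 exons. Bpifb4 lies on the plus strand at chr2:153938217-153963852 with 17 exons, and Prom2 on the minus strand of the same chromosome at chr2:127526953-127541417 with 24 exons. One annotated gene overlaps Ace on the opposite strand, Gm11651, and it held 2 counts over all libraries. The promoters are printed because the 3 genes were lower together with palmitate and high together in 3D. Each window runs from 250 bases before to 50 bases from an annotated start site, 5′ to 3′ on the strand of the gene, from RefSeq on GRCm38.p6. Capitals mark the matches to the motifs listed after the sequences.
Ace, chr11:105967698-105967997, plus strand: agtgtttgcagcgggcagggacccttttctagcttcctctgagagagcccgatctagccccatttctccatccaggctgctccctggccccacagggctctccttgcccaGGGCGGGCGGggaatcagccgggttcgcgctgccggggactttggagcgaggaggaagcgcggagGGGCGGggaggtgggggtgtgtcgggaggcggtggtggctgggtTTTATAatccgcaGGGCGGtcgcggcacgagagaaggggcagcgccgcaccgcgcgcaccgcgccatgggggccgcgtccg
Bpifb4, chr2:153940612-153940911, plus strand: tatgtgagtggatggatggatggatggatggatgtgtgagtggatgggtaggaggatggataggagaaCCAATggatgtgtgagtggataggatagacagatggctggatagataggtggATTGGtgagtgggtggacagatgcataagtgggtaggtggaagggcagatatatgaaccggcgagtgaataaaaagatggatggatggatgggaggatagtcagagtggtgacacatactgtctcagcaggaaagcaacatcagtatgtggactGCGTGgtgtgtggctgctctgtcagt
Prom2, chr2:127541368-127541667, minus strand: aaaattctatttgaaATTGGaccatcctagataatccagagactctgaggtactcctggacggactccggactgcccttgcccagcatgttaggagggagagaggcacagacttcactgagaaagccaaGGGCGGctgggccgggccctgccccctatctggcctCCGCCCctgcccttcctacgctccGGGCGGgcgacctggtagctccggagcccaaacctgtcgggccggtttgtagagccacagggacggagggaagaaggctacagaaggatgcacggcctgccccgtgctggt
The Ace and Prom2 windows start their genes at exon 1. The start site used for Bpifb4, at position 153940862, lies in exon 2 of its longest GENCODE transcript, inside the RefSeq span given above. The promoter at the 5′ end of that span was not searched. A second annotated start of Ace, at position 105975189 in intron 12, is the internal one. Counts per gene cannot tell which start was used.

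The windows differed in composition. The Ace window held 69.7% G and C with 29 CpG, the Prom2 window 61.3% with 15 CpG, and the Bpifb4 window 49% with 3 CpG, against a median of 52.7% G and C over 32851 RefSeq promoters. The following 13 motifs were searched on both strands, with N standing for any base. GGGCGG, the GC box, matched 4 times in Ace, with first bases at -140, -136, -75 and -18 from the start site, and 3 times in Prom2, at -121, -85 and -61, and it is held by 35.7% of all promoters. The matches at -140 and -136 overlap, and that at -85 is on the opposite strand. CCAAT matched once in Prom2, at -235, and in Bpifb4 at -182 and -130, and 37.4% of promoters hold it. Of these, the matches at -235 and -130 are on the opposite strand. TATAAA matched once, in Ace at -31 on the opposite strand, and 13.6% of promoters hold it. GCGTG, the core of the aryl hydrocarbon receptor site, matched once, in Bpifb4 at 25, against 32.4% of promoters. None of the 3 windows held TGANTCA for AP-1, CACGTG, its inner part ACGTG for hypoxia-inducible factors, GGAATG for TEAD, TGATGNAA for ATF4, GGNNTTTCC for RelA, AGGTCA for nuclear receptors, GAANNTTC for heat shock factors or AACNNGTT for grainyhead-like factors. In all promoters these had shares of 7.81%, 7.15%, 19.6%, 14.7%, 3.97%, 5.82%, 16.3%, 7.86% and 4.2%. No searched motif was found in all 3 printed windows. The window at the second Ace start, not printed, was also searched and held CCAAT at -25, on the opposite strand, and AGGTCA at -50. With that window counted, each of the 3 genes had a CCAAT match, a motif that 37.4% of all promoters hold.

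Library totals ranged from 6595514 counts, in replicate 3 of the spheroids with palmitate, to 31177756, and Rn45s, the ribosomal RNA precursor, took 1.77% to 5.38% of them. The Rn45s share was 1.77% to 2.77% in spheroids without palmitate and 1.81% to 5.38% in those with it. With that share as a covariate, the palmitate log2 fold changes given below became -0.60 for Ace, -1.27 for Bpifb4 and -0.68 for Prom2. Levels are given in CPM, the counts of a gene relative to the library total scaled by TMM. Of 9 epithelial markers, all were detected in every condition, with summed levels of 5392 to 5467 CPM in 3D without palmitate, 5224 to 5549 CPM in 3D with palmitate and 4289 to 4635 CPM in 2D. Of these, only Krt14 was called with palmitate (log2 -0.52 in edgeR, adjusted p = 0.00517), and it went from 185 to 128 CPM. The endothelial list (6 genes, among them Pecam1, Cdh5 and Kdr) summed to at most 1.57 CPM in any library. Tie1, the only 1 of them that passed the filter, had 6, 27 and 47 counts in the same order of conditions. Its log2 fold change with palmitate was 2.30 (SE 0.601), with overlapping groups and no call. The kidney tubule and male germ cell list (4 genes) summed to at most 0.331 CPM, with Slc34a1 and Tnp1 at 0 in every library. Leukocyte markers (7 genes) summed to 7.54 to 9.44, 8.88 to 11.7 and 24.6 to 28.2 CPM in the same order of conditions, most of it Cd68, with Adgre1 and Cd3e at 0. Fibroblast markers (6 genes) summed to 91.7 to 106, 93.3 to 111 and 31.7 to 33.7 CPM, most of it Pdgfra, with Lum at 0. Their part in the results was not tested.

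Ace was high in spheroids, lower with palmitate and lowest in monolayers. Without added palmitate, the 3 spheroid libraries held 87.17, 90.42 and 95.96 CPM. With palmitate they held 59.63, 54.75 and 61.07 CPM. The 2D libraries held 1.075, 1.409 and 0.9352 CPM, from 13, 44 and 21 counts. No range overlapped another, and the lowest spheroid library without palmitate was 1.43 times the highest with it. The means were 91.18 ± 4.446, 58.48 ± 3.316 and 1.14 ± 0.2434 CPM (SD, n = 3 each). The mean transcript level was thus 35.9% lower with palmitate, a log2 fold change of -0.64 (SE 0.0742). In bulk RNA, fewer cells that express a gene and less RNA per cell cannot be told apart.

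Bpifb4 had the largest relative difference of the 3 genes on both sides. The spheroids without palmitate held 23.33, 28.35 and 24.61 CPM, and those with palmitate 11.66, 9.187 and 8.572 CPM. In 2D, the gene was at the edge of detection, with 1, 2 and 0 counts in the 3 libraries, where 3 counts would correspond to 0.248, 0.0961 and 0.134 CPM. Again no ranges overlapped, and the lowest spheroid library without palmitate held 2 times the highest with it. The means were 25.43 ± 2.61 and 9.807 ± 1.635 CPM in 3D without and with palmitate and 0.0489 ± 0.04336 CPM in 2D (SD, n = 3 each). The level was 61.4% lower with palmitate, a log2 fold change of -1.31 (SE 0.128).

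Prom2 was the most abundant of the 3 transcripts and had the highest level in monolayers. The spheroid libraries held 182.7, 185.4 and 175.7 CPM without palmitate and 127.3, 120.9 and 102.9 CPM with it. The 2D libraries held 17.03, 16.01 and 15.72 CPM. The order of the conditions was that of Ace and Bpifb4, with no overlap, and the lowest library without palmitate was 1.38 times the highest with it. The lowest of the treated spheroids was replicate 3, the smallest library. The means were 181.2 ± 5.011, 117 ± 12.68 and 16.25 ± 0.6872 CPM (SD, n = 3 each), and the level was 35.4% lower with palmitate, a log2 fold change of -0.62 (SE 0.0736).

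**Figure D1:**
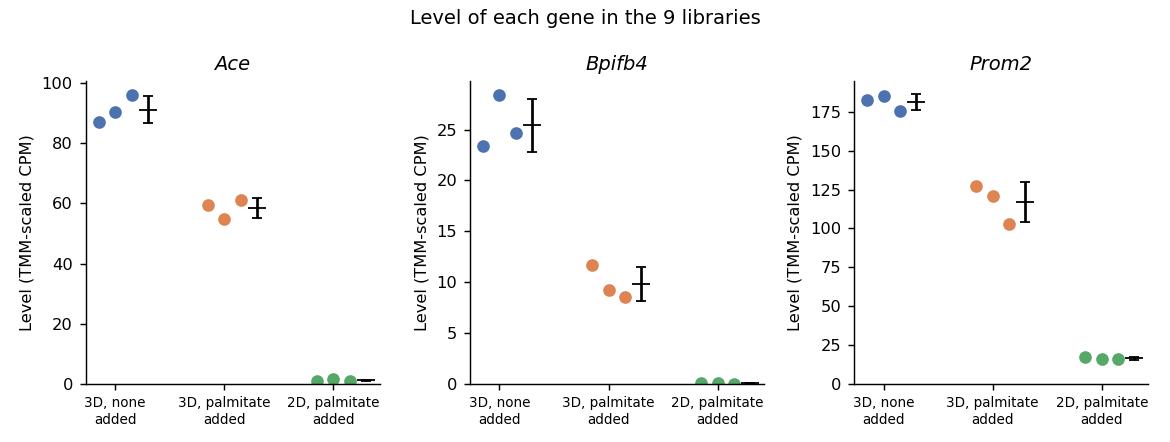
Level of Ace, Bpifb4 and Prom2 (y axis, TMM-scaled CPM, from 0) in each of the 9 libraries, by condition (x axis); points are libraries, and black marks are the mean ± SD of 3 libraries. In each panel the spheroids without palmitate lie above those with it, and the 2D libraries lie lowest, near 0 for Ace (mean 1.14 CPM) and Bpifb4 (0.0489 CPM) but at 16.25 CPM for Prom2.

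Per kilobase of exon, the order of the genes was the same in every condition. Prom2 had 34.9, 22.6 and 3.13 CPM per kilobase in 3D without palmitate, 3D with palmitate and 2D, Ace 17.2, 11.1 and 0.216, and Bpifb4 8.13, 3.14 and 0.0156. Among all 12575 tested genes ordered by mean CPM, Ace stood at the percentile 77 in spheroids without palmitate, 65.6 with it and 9.05 in 2D. Bpifb4 stood at 43.6, 26 and 0.302, and Prom2 at 90.3, 82.6 and 34. The 2D level was 1.25% of that in spheroids without palmitate for Ace and 8.97% for Prom2.

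The ratio of 2 genes' counts within a library does not depend on how libraries are scaled. For each 100 counts of Prom2, Ace had 50.4 ± 3.72 counts in 3D without palmitate and 50.5 ± 7.72 with it (SD, n = 3 each). The range without palmitate, 47.7 to 54.6, lay within that with it, 45.3 to 59.4. In 2D the ratio was 7.02 ± 1.55. Bpifb4 had 14 ± 1.26 counts per 100 of Prom2 without palmitate, 8.36 ± 0.78 with it and 0.295 ± 0.259 in 2D. Against Ace it had 27.9 ± 3.03, 16.8 ± 2.76 and 4.08 ± 3.87 counts per 100. The mean ratio of Ace to Prom2 thus moved with palmitate by less than its SD, whereas Bpifb4 was lower relative to both, without overlap between the spheroid groups. The spheroid ratios are built from the values that chose the 3 genes, so they are a description only, and the share of other gene pairs without overlap was not counted.

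**Figure D2:**
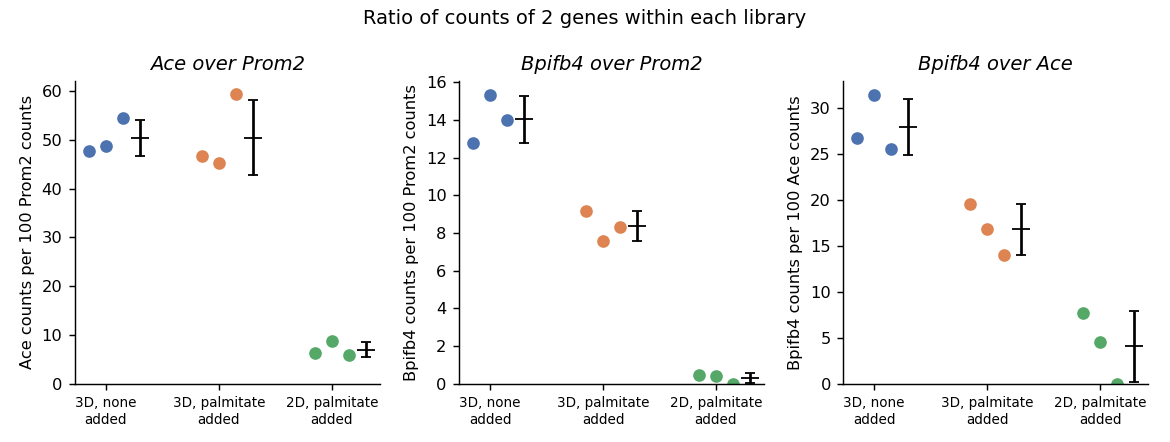
Counts of 1 gene per 100 counts of another within each library (y axis, from 0) by condition (x axis); points are libraries, black marks are the mean ± SD of 3. Ace over Prom2 has the same level in spheroids without and with palmitate (50.4 and 50.5), while Bpifb4 over Prom2 steps down from 14 to 8.36 and then to 0.295 in 2D.

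Across all genes, edgeR's quasi-likelihood test (Benjamini-Hochberg adjusted p under 0.05) called 102 genes lower in spheroids with palmitate, 0.811% of those tested, and 173 higher, 1.38%. With scaling by library size alone it called 120 lower and 106 higher, so that the share of higher calls went from 62.9% to 46.9%. The 3 genes were among the 102, as the way they were chosen fixes. By p in edgeR, Bpifb4, Ace and Prom2 held places 1, 2 and 3 among the genes lower with palmitate. That order comes from the comparison that chose the 3 genes, so it is a description and no support for them. They were among the 1030 genes, 8.19%, whose treated libraries all lay below all the untreated ones, which the same choice favours. Ordered by fold change from the lowest, which their choice favours, Bpifb4 was in place 12, Ace in place 148 and Prom2 in place 164. Next by p, in places 4 and 5, were Mal, a raft proteolipid of apical membrane traffic, and Myh14, a non-muscle myosin heavy chain. Their mean levels without and with palmitate were 110 and 74.7 CPM for Mal and 60.2 and 37.6 for Myh14, log2 fold changes of -0.57 and -0.66. In 2D they stood at 11.7 and 30.5 CPM.

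The second comparison set spheroids against monolayers, both with 75 µM palmitate. It shares its 3D libraries with the comparison that chose the genes, where the genes had been picked for being low. All 3 genes were higher in them than in 2D. The log2 fold change was 5.62 for Ace (SE 0.121, adjusted p = 1.18e-13 by edgeR), with means of 58.48 and 1.14 CPM, a ratio of 51.3. It was 2.86 for Prom2 (SE 0.0847, adjusted p = 1.91e-12 by edgeR), a ratio of means of 7.2. For Bpifb4 the fitted log2 fold change was 7.61 (SE 0.338), but this value depends on the 3 counts seen in 2D. Bpifb4 passed the filter on low counts only through its spheroid counts, so its call carries no weight here. The ratio of its summed counts, scaled by library size and TMM, was 231, with an exact 95% interval of 78.6 to 1124 that covers counting error only. All 3 of 3 libraries were higher than all 3 of 3 for each gene, with 34.6% of all tested genes in the same position. Of all tested genes, 4335 (34.5%) were called higher and 4259 (33.9%) lower, so being called here is common. The size of the difference was less so: from the highest fold change down, Ace was in place 29 and Prom2 in place 204 of 12575. Bpifb4 was in place 6, which rests on its 3 counts in 2D.

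Spheroids without palmitate differ from the 2D libraries in both culture and palmitate, and their ratios to 2D exceed those above because the genes were picked for being lower with palmitate. The ratio of means was 80 for Ace and 11.2 for Prom2, and the ratio of summed counts was 552 for Bpifb4 (exact 95% interval 188 to 2680).

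The genes around each were used to see whether the lower level extended along the chromosome. For each gene, the 3 nearest tested genes on either side were taken. Over all tested genes, 17.3% had an unadjusted p under 0.05 with palmitate. Around Ace, 0 of 6 neighbours were called with palmitate by edgeR, 1 had an unadjusted p under 0.05, and DESeq2 called 1, Tanc2, a scaffold protein whose log2 fold change was -0.34 (SE 0.0995) in edgeR. The log2 fold changes of the 6 ranged from -0.34 to 0.10. Around Bpifb4, 0 of 6 were called by edgeR or by DESeq2 and 0 had an unadjusted p under 0.05, with a range of -0.71 to 0.17. The lower end was Bpifb3, the next BPI fold gene, 5221 bases away, which had only 38, 20 and 0 counts in the 3 conditions. Around Prom2, 1 of 6 was called by edgeR and by DESeq2, and 4 had an unadjusted p under 0.05, beside 0.811% of all genes called lower and 1.38% called higher.

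The gene called was Mal, the apical raft proteolipid, 91809 bases from Prom2. Its means were 110 ± 6.69 CPM without palmitate, 74.7 ± 4.77 CPM with it and 11.7 ± 0.258 CPM in 2D (SD, n = 3 each). It fell by 0.57 on the log2 scale with palmitate (SE 0.068, adjusted p = 0.000823 by edgeR) and was higher in 3D than in 2D by 2.66 (SE 0.0794, adjusted p = 1.96e-12 by edgeR). The call for palmitate held in all 17 alternative analyses, with log2 fold changes of -0.62 to -0.51. Mal was also named for its place 4 by p among the genes lower with palmitate, directly behind the 3 genes. The genes between Prom2 and Mal were not called with palmitate: Zfp661, a zinc finger gene, had -0.36 (SE 0.146) and Mrps5, a mitochondrial ribosomal protein, had -0.09 (SE 0.0757). On the other side, Kcnip3, 4859 bases from Prom2, had -0.79 (SE 0.308) from 86, 42 and 27 counts in the 3 conditions, and Dusp2 and Fahd2a had 0.60 and 0.10.

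**Figure D3:**
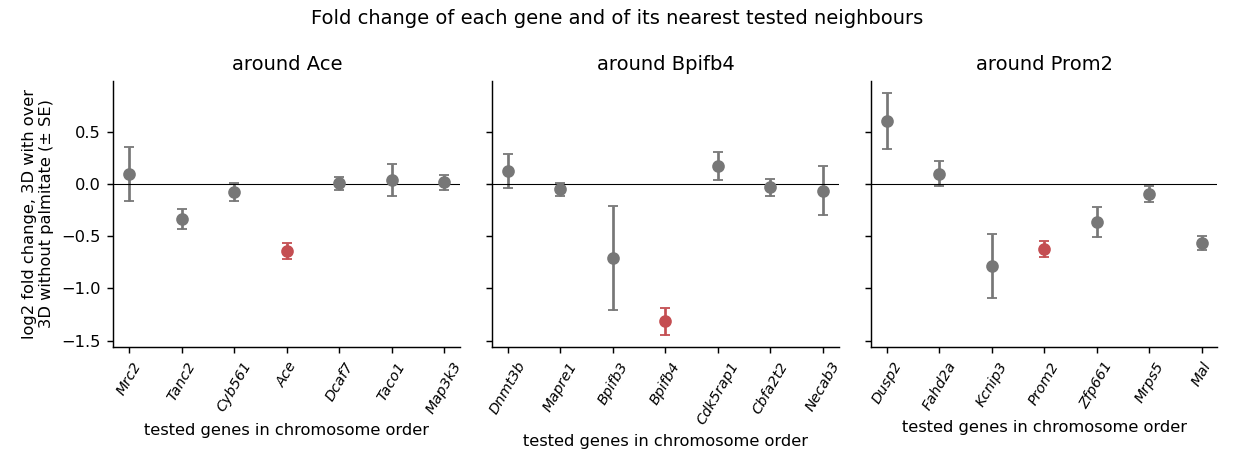
Log2 fold change of spheroids with over without palmitate (y axis, ± SE from the edgeR fit on 9 libraries) for Ace, Bpifb4 and Prom2 (red) and the 3 nearest tested genes on each side (grey), in chromosome order (x axis, not to scale). Most grey points around Ace and Bpifb4 lie near 0, and around Prom2, at -0.62, Kcnip3 lies at -0.79 with a wide error and Mal, the third gene to the right, at -0.57.

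Between 3D and 2D culture, 5 of the 6 neighbours of Ace were called higher and 0 lower by edgeR, beside 34.5% and 33.9% of all genes, and DESeq2 also called 5. The values ran up to 2.39 for Tanc2 (SE 0.108), from means of 231 and 43.9 CPM, and 1.95 for Mrc2, a collagen receptor. Mrc2, at 0.587 CPM in 2D, passed the filter on low counts only through its spheroid counts, so its call carries no weight here. Cyb561, a cytochrome of secretory vesicles, was higher by 0.96, Dcaf7 by 0.74 and the kinase gene Map3k3 by 0.40, and Taco1 had -0.29 (SE 0.152, adjusted p = 0.0994 by edgeR). Around Bpifb4, 2 were called higher, Bpifb3 and Cbfa2t2, and 2 lower, the DNA methyltransferase gene Dnmt3b and Cdk5rap1, against the same shares of all genes. Mapre1 and Necab3 were not called. The call of Bpifb3, with 0 counts in 2D, carries no weight for the same reason. Around Prom2, Kcnip3 and Mal were called higher, Dusp2 and Mrps5 lower, and Fahd2a and Zfp661 were not called. Kcnip3, at 0.414 CPM in 2D, also passed the filter only through its spheroid counts, so its call carries no weight.

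Genes whose course over the 9 libraries was nearest to each member were taken by the root-mean-square difference of centred log2 CPM, a description that uses both contrasts. Nearest to Ace were Tslp, an epithelial cytokine, with a difference of 0.214, Dsg3, a desmosomal cadherin of stratified epithelia, with 0.229, and Gabrp, a GABA receptor subunit, with 0.272. Tslp had 875 ± 24.7, 631 ± 59.4 and 14.2 ± 0.921 CPM in the 3 conditions, and Dsg3 33.5 ± 3.25, 19.3 ± 3.58 and 0.245 ± 0.109 CPM. Gabrp had 360, 157 and 0 counts, so that its level in treated spheroids was at least 73.4-fold higher than in 2D, taking 3 counts over the 2D group as the floor. Nearest to Bpifb4 were Dsg3 again, at 0.418, then Ace itself, at 0.529, and Gas7, a growth arrest-specific gene, at 0.548, with 1309, 677 and 3 counts. Nearest to Prom2 were Slc25a35, a mitochondrial carrier, at 0.136, Mal at 0.165 and Mxd4, a MYC antagonist, at 0.189. Slc25a35 had 9.09 ± 0.441, 6.01 ± 0.748 and 0.697 ± 0.112 CPM, and Mxd4 14.7 ± 0.967, 12.1 ± 0.565 and 1.46 ± 0.109 CPM. The neighbour Mal was thus also among the closest in pattern to Prom2.

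**Figure D4:**
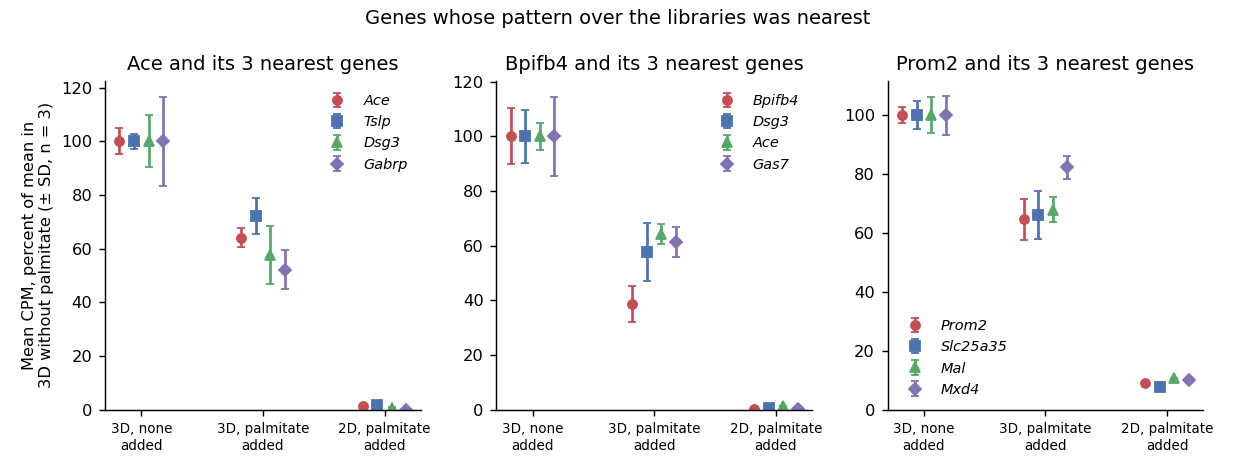
Mean CPM as a percent of the mean in spheroids without palmitate (y axis, from 0, ± SD, n = 3) in the 3 conditions (x axis) for each gene and the 3 tested genes nearest to it in pattern. With palmitate, Bpifb4 lies below its nearest genes, and in 2D the genes near Ace and Bpifb4 lie close to 0 while those near Prom2, among them Mal with 11.7 CPM, keep a visible level.

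The partners of the 3 genes were described from 4 lists, none of which holds the 3 genes. In the renin-angiotensin and kinin list, 16 of 36 genes passed the filter. The substrate and receptor end of the angiotensin system had few or no counts: the angiotensinogen gene Agt had 1, 0 and 6 counts in the 3 conditions, and renin (Ren1) and the receptor genes Agtr1a and Agtr2 had 0. With palmitate, edgeR called 0 of the 16 in either direction, DESeq2 called 0, and 4 had an unadjusted p under 0.05. Their median log2 fold change was 0.03 against 0.01 over all genes tested. The bradykinin receptor gene Bdkrb2 had 25.4 CPM without palmitate and 24.9 with it, a log2 fold change of -0.03 (SE 0.0925). The other bradykinin receptor gene, Bdkrb1, had 27, 50 and 111 counts in the 3 conditions. Its log2 fold change with palmitate was 1.10 (SE 0.349), the highest of the list, with overlapping groups and no call. Between 3D and 2D, 8 were called higher and 7 lower, against 34.5% and 33.9% of all genes, with a median of -0.01 against 0.01 over all genes. The leading higher genes were the lysosomal protease Ctsd (1.63), and the aminopeptidases Xpnpep2 (2.30) and Lnpep (1.93). The leading lower ones were the oligopeptidases Thop1 (-0.95) and Prep (-0.61) and the aminopeptidase Xpnpep1 (-0.56).

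In the BPI fold and lipopolysaccharide recognition list, 5 of 19 genes passed the filter and 6 had no count at all. With palmitate, edgeR called 0 of 5 and DESeq2 0, with 1 unadjusted p under 0.05 and a median of 0.21. Between 3D and 2D, 3 were called higher and 1 lower, beside 34.5% and 33.9% of all genes. Their median was 0.80 against 0.01 over all genes, and it rests on only 5 genes, Bpifb3 among them. Bpifb3, with 0 counts in 2D, passed the filter only through its spheroid counts, so its call carries no weight here. The genes called higher were the lipopolysaccharide receptor Tlr4 (1.21), its partner Ly96 (0.80) and Bpifb3, at least 9.35-fold over the floor of 3 counts in 2D. The co-receptor Cd14 was lower (-0.49). Apart from Bpifb4 and Bpifb3, the BPI fold genes proper had few counts, the highest being Bpifc with 8, 10 and 0 counts, while the lipid transfer gene Pltp had 4.98, 5.8 and 5.16 CPM.

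In the list of prominins, microvilli and protrusions, 22 of 30 passed. Prom1, the other prominin, did not, with 15, 8 and 4 counts in the 3 conditions. With palmitate, edgeR called 0 of 22, DESeq2 0, and 0 had an unadjusted p under 0.05, with a median of -0.02. Ezrin (Ezr), which ties microvilli to actin, had 739 CPM without palmitate and 713 with it. Between 3D and 2D, 9 were called higher and 5 lower, beside 34.5% and 33.9% of all genes, with a median of 0.10 against 0.01 over all genes. The caveolar coat genes split: Prkcdbp (cavin 3) was higher by 1.23, whereas Sdpr (cavin 2) was lower (-2.99), from 11.5 CPM in 3D to 85.6 in 2D, as was Cav1 (-0.94). The sialomucin Podxl (0.97) and the actin-capping protein Eps8 (0.88) were higher, and moesin (Msn) was lower (-0.49).

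In the list of ferritin and multivesicular body export, all 23 genes passed. The list also held Slc7a11, Gpx4 and Acsl4, genes of ferroptosis rather than of export, and they enter its counts and medians. With palmitate, edgeR called 0, DESeq2 0, and 3 had an unadjusted p under 0.05, with a median of -0.01. The ferritin heavy chain gene Fth1 had 5188 and 5158 CPM without and with palmitate, a log2 fold change of -0.01 (SE 0.066). Between 3D and 2D, 14 were called higher and 5 lower, beside the same 34.5% and 33.9% of all genes, with a median of 0.30 against 0.01 over all genes. Highest by p were the cystine transporter Slc7a11 (2.62), the vesicle-docking Rab27b (2.32) and the tetraspanin Cd9 (1.21), and Fth1 was higher by 1.04. The tetraspanin Cd63 (-0.71) and the ESCRT genes Chmp2a (-0.40) and Tsg101 (-0.23) were lower.

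The BPI fold list had 0 palmitate calls under every one of the 17 alternatives, whereas the other 3 lists did not. Without replicate 3 of the spheroids with palmitate, edgeR called 1095 of 12787 genes higher (8.56%) and 806 lower (6.3%). Among them it called 3 genes of the renin-angiotensin and kinin list higher (Thop1, Xpnpep1 and Bdkrb1), 2 of the prominin list higher (Slc9a3r1 and Fscn1), and of the ferritin list 3 higher (Cd63, Ftl1 and Vps37b) and 4 lower (Ncoa4, Vps4b, Rab27b and Acsl4). Genes outside the naming rule in that sentence were named after their values were seen. With GC and length trends removed, 2 genes of the first list (Thop1 and Xpnpep1) and 2 of the ferritin list (Cd63 and Slc7a11) were called higher, and with no filter on low counts 1 (Cd63). Without replicate 3, Ace had -0.67, Bpifb4 -1.25 and Prom2 -0.54.

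**Figure D5:**
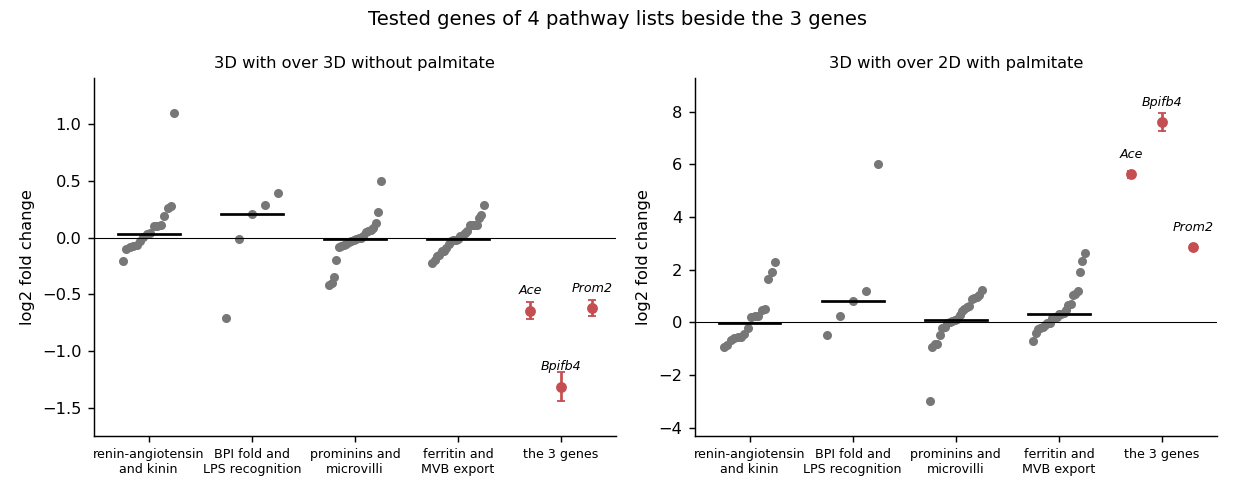
Log2 fold changes (y axis) of the tested genes of 4 lists (grey points, black line their median) beside Ace, Bpifb4 and Prom2 (red, ± SE) for palmitate in spheroids (left) and for 3D over 2D (right), with the y scales differing between panels. In the left panel the medians lie between -0.02 and 0.21 and the 3 genes at -0.64, -1.31 and -0.62, a distance that their choice fixes, and in the right panel the 3 genes lie at 5.62, 7.61 and 2.86.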

How the data were processed

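For 9 libraries made with a stranded poly(A) kit, the authors deposited unnormalized counts of reads for each gene. According to the study's methods and the submitters' processing notes, single-end reads were cleaned with fastq-mcf, inspected with FastQC 0.11.9, aligned to GRCm38 (mm10) with HISAT2 2.1.0 and counted with HTSeq. The annotation release and strand setting are not given in the sources used here, so reads of overlapping or near-identical genes could be split. Groups and replicate numbers came from the sample titles.

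Counts were filtered with filterByExpr, scaled by TMM and fitted with the quasi-likelihood model of edgeR 4.0.16 (R 4.3.3), with condition as the only term over all 9 libraries. Adjusted p-values are Benjamini-Hochberg over 12575 genes. The procedure was tested on simulated data. Coordinates came from RefSeq and exon lengths from GENCODE, both on GRCm38. Profiles were log2 CPM (prior count 2).

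The 3 genes, the lists, the tests and the named-gene rule were chosen with earlier results of these data known. The rule named, for each list, any gene called with palmitate and, by p between cultures, the leading 3 in each direction, and for each member 3 nearest profiles, 3 neighbours a side and the next 3 genes by p. A gene mentioned as a pathway's central member (such as Agt, Ren1, Bdkrb1, Bdkrb2, Prom1, Ezr, Fth1 or Pltp) was named after its values were seen. Some items that the rule or lists include are not reported here. Alternatives were RLE or library size scaling, no filter, DESeq2 1.42.0, the 2 groups alone, a replicate block, the Rn45s share as a covariate and each library left out. Removal of GC content and length trends was added after the data were seen.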

Additional observations from a re-analysis of the deposited data

How the results depend on the processing

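Over 17 alternatives, all 102 refitted fold changes of Ace, Bpifb4 and Prom2 had the direction given above. For palmitate, the genes were chosen for that direction in these same libraries, so its persistence is no separate support. The 3D-over-2D calls of Ace and Prom2 held, with adjusted p of at most 1.97e-09 (edgeR or DESeq2). That of Bpifb4 carries no weight, as said above. With palmitate, leaving out each library gave log2 fold changes of -0.68 to -0.60 for Ace, -1.50 to -1.24 for Bpifb4 and -0.69 to -0.54 for Prom2. Between 3D and 2D it gave 5.47 to 5.87, 7.06 to 8.13 and 2.80 to 2.94.

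The count of 102 genes lower with palmitate moved more: 292 with no filter on low counts, 160 by DESeq2, 34 with only the 2 groups compared, 17 with the Rn45s share as a covariate, and 400 with GC and length trends removed, which was added after seeing the data. Leaving out each library gave 27 to 806, the highest without replicate 3 of the spheroids with palmitate and the lowest without replicate 2 of those without it. The cause was not tested. With the replicate block it was 38. The numbers did not pair the libraries: same-numbered libraries had correlations of -0.238 to 0.145 (9 pairs). With the block the 3 genes kept their direction in both comparisons, and Ace and Prom2 kept their 3D-over-2D calls. With 3 counts of Bpifb4 over the 2D libraries, its 3D-to-2D ratio is imprecise.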
